A study of Mus musculus with 20 samples.

Results

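The effect of losing both fetal copies of Ppara was measured in the livers of mouse fetuses whose dams were themselves Ppara knockouts. The comparison set 4 livers of knockout fetuses (KODam_KOFetus) against 4 livers of heterozygous fetuses (KODam_HetFetus), out of 20 livers in the series. A gene was included where its log2 value was at least 0 in at least 4 of the 20 libraries, which kept 11807 of 45802 entries, and 11805 of them had values in both groups. All fetuses were at stage E17.5, were labelled C57BL/6, and came from dams that had been fasted for 24 h, so the dams of both groups shared the knockout genotype and the fast. KODam_HetFetus fetuses kept 1 working Ppara allele and KODam_KOFetus fetuses kept none. Each group had 2 females and 2 males. Another group, heterozygous fetuses of heterozygous dams (HetDam_HetFetus, 4 livers), gives the levels without maternal knockout. The other 8 livers had no Ppara knockout allele by their labels. They were Cpt2f/f fetuses, 4 from Cpt2f/f dams (FloxDam_FloxFetus) and 4 from Cpt2f/f dams with Albumin-Cre, a Cre driven by the hepatocyte gene albumin (Cpt2LKODam_FloxFetus).

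PPARA is a nuclear receptor that binds fatty acids and their derivatives, pairs with RXR, and switches on genes for taking up, activating and oxidizing fatty acids. In the fasted adult liver it drives peroxisomal and mitochondrial beta-oxidation, microsomal omega-hydroxylation and the making of ketone bodies. The late fetal liver carries out these functions while it is still a major site of blood cell formation.

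Hepatocyte transcripts were abundant in every library: the summed linear values of 34 hepatocyte genes were 86800 to 120000 in KODam_HetFetus and 85000 to 115000 in KODam_KOFetus. Each of the 34 had a value in at least 1 library of both groups. Sums of 20 erythroid genes were 216000 to 232000 and 217000 to 233000. Correlations across genes between the 8 livers ran from 0.933 to 0.985, and no pair of libraries was identical. One KODam_KOFetus library, replicate 2, had raised skeletal muscle transcripts, with a marker sum of 291 against 13.4 to 16.3 in the other 3 knockout livers and 12.9 to 14.2 in the heterozygous livers. The sample names carry a number of unstated meaning, which is shared by replicates 1 and 2 of KODam_HetFetus and by replicates 1 and 2 of KODam_KOFetus, which were treated as presumed littermates. The 2 groups share no such number, so fetal genotype and dam cannot be told apart. In these bulk samples, fewer cells of a type and less RNA per cell cannot be told apart either. No label says which part of Ppara was deleted or gives the genotype of the sires.

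Ppara itself (chromosome 15, 85734910 to 85806851, GRCm38.p6) stood at 2.17, 1.81, 3.05 and 3.22 in the heterozygous livers and 2.40, 2.48, 1.87 and 2.30 in the knockout livers. These libraries overlapped, and the difference was -0.30 ± 0.264 (adjusted p = 0.682). Transcript remained in the knockout livers, and whether it lies inside the deleted part is not known, so its level does not check the genotype.

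Fetal Ppara loss was followed almost entirely by falls. Of 11805 genes, 97 (0.822%) passed the test at a limma adjusted p under 0.05, here called genes: 94 were lower (0.796%) and 3 were higher (0.0254%) in knockout livers. In all 97 the knockout libraries with a value lay apart from the heterozygous ones. Over all genes tested, 477 (4.04%) had all knockout libraries lower and 207 (1.75%) had all of them higher. Many falls were large: 69 of the 94 were at least 2-fold, 25 at least 4-fold and 7 at least 16-fold. The median log2 fold change of the 94 was -1.35 against -0.0148 for all genes tested. Some of the largest folds depend on the scale, because levels were low. Among the 7, Cyp4a10, Cyp4a14 and Slc25a34 were at -0.90, -1.41 and -0.32 with a pseudocount of 4. Rpl3, also among the 7, was at 0.06 when summed with the nearly identical pseudogene Rpl3-ps1. Of the 94, 65 had a mean log2 value of 2 or more in KODam_HetFetus. A total of 48 of the 94 are on 14 lists of lipid metabolism, which hold 221 tested genes with a median of -0.239. All lists were chosen with earlier results of these data known, so the counts of falls on them are not independent evidence. At an unadjusted p under 0.05 there were 661 lower and 626 higher genes, together 10.9% of those tested. The main test treats the livers as independent, so its errors and adjusted p-values do not allow for litter. The fitted correlation within presumed litters was 0.568. With litter as a random block 71 genes were lower and 0 higher, and all 71 were among the 94. Without KODam_KOFetus replicate 3, 97 genes were lower and 50 higher, so the shortage of rises depended on that library. The plot of fold change against p shows how far the called genes sit to one side.

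**Figure D1:**
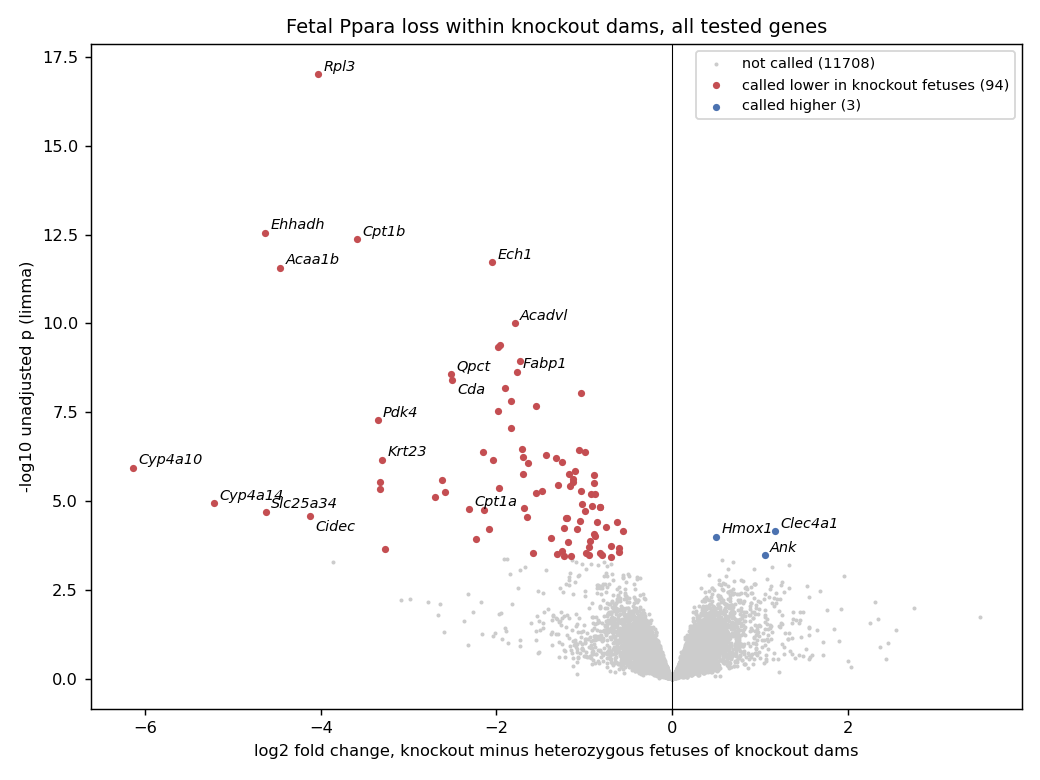
Log2 fold change of KODam_KOFetus minus KODam_HetFetus (x axis) against -log10 of the unadjusted limma p (y axis) for 11805 genes. The 94 called lower genes (red) spread down to -6.14, whereas the 3 called higher genes (blue) lie between 0.51 and 1.17.

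Known PPARA target genes fell in large numbers. Of 51 tested targets 34 fell, 0 rose and 17 were not called, and the list median was -1.70. The number of falls was 34 without the libraries that carried transcripts of neighbouring tissues. Of the 3 targets below the minimum level, Fgf21, the fasting hormone of liver, was listed without a value in all 4 heterozygous livers. It had values, both very low, in 2 knockout livers (-5.125 and -4.948). The list was drawn up with the receptor's role in liver and earlier results of these data known. Its direction and its number of falls are therefore not independent evidence.

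Peroxisomal beta-oxidation shortens very long and branched fatty acids, and 10 of its 23 tested genes fell while 0 rose. Ehhadh, the bifunctional enzyme of its middle steps (chromosome 16, 21761285 to 21787834), stood at 7.00, 7.01, 7.04 and 7.71 in the heterozygous livers and 2.12, 2.64, 2.69 and 2.79 in the knockout livers. The knockout livers were 24.8-fold lower with no overlap, a log2 fold change of -4.63 ± 0.262 (adjusted p = 1.66e-09, n = 4 livers per group). The SE comes from the model of all livers in the series, not from the compared groups alone. Acaa1b, a peroxisomal thiolase (chromosome 9, 119148043 to 119157093), stood at 3.73, 3.74, 4.19 and 4.55 in the heterozygous livers and -0.91, -0.62, -0.15 and 0.03 in the knockout livers, a fall of similar size at -4.46 ± 0.287 (adjusted p = 6.57e-09). Its close relative Acaa1a fell less, by 0.91 ± 0.157 with an adjusted p of 0.00302. The split of reads between this pair is uncertain because the counting rule is not given in the sources used here.

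Ech1, which moves double bonds of unsaturated chains (chromosome 7, 28825338 to 28832239), stood at 7.43, 7.40, 7.84 and 8.10 in the heterozygous livers and 5.48, 5.86, 5.70 and 5.54 in the knockout livers. Its knockout livers were tightly grouped, and the difference was -2.05 ± 0.129 (adjusted p = 5.7e-09). Decr2 (-1.98 ± 0.222), a reductase for unsaturated chains, Slc27a2 (-1.98 ± 0.172), a very-long-chain acyl-CoA synthetase, Hsd17b4 (-1.71 ± 0.225), the bifunctional enzyme for branched chains, and Abcd3 (-1.32 ± 0.181), a peroxisomal importer, fell as well. Crot, which makes medium-chain acylcarnitines for export to mitochondria, fell by 1.31 ± 0.298 with an adjusted p of 0.0394. The 13 genes without a call included Acox2 (0.31) and Acox3 (0.15), oxidases of branched chains and bile acid precursors, Phyh (0.06), which starts alpha-oxidation, and Scp2 (-0.47).

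Of the genes that build the organelle itself, 4 of 22 fell, 0 rose, and the median was -0.111. Pex16, which brings membrane proteins to new peroxisomes, stood at 4.46, 4.61, 4.78 and 4.85 in the heterozygous livers and 2.93, 3.45, 3.58 and 3.72 in the knockout livers (-1.26 ± 0.175, adjusted p = 0.000317). Pxmp4 (-1.10 ± 0.16), a peroxisomal membrane protein, Pex14 (-0.89 ± 0.132), part of the import pore, and Pex19 (-0.60 ± 0.135), a chaperone of membrane proteins, completed the falls. The call of Pex19 was lost when KODam_HetFetus replicate 3 or 4 was left out, and likewise KODam_KOFetus replicate 1 or 2 (-0.50 to -0.58, adjusted p = 0.117 to 0.179), and with litter as a random block (adjusted p = 0.0712). Cat, the catalase that removes hydrogen peroxide, was at -0.11 and not called, and so was Pex11a (-0.37), a gene of peroxisome division on the target list. Fitting only the 8 livers left 2 falls on this list.

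Entry of long-chain fatty acids into mitochondria passes through the carnitine shuttle, and 6 of its 11 tested genes fell while 0 rose. Cpt1a, the outer-membrane carnitine palmitoyltransferase of liver (chromosome 19, 3322326 to 3385735), stood at 4.42, 4.39, 5.34 and 5.66 in the heterozygous livers and 2.17, 2.49, 2.78 and 3.14 in the knockout livers. The heterozygous littermates, replicates 1 and 2, were lower than replicates 3 and 4 but still above every knockout liver (-2.31 ± 0.406, adjusted p = 0.0035). Slc25a20, the carrier that swaps acylcarnitine for carnitine across the inner membrane (chromosome 9, 108662136 to 108684642), stood at 4.50, 4.49, 5.05 and 5.13 in the heterozygous livers and 2.94, 3.08, 3.00 and 3.24 in the knockout livers (-1.73 ± 0.158, adjusted p = 1.51e-06). Cpt1b, the muscle-type form of the outer enzyme, had the largest fall of the list and is described with chromosome 15. Aldh9a1, an enzyme of carnitine synthesis, fell by 0.99 ± 0.133. Cpt2, the inner-membrane enzyme, stood at 3.65, 3.83, 4.16 and 4.38 in the heterozygous livers and 3.45, 3.46, 3.04 and 3.27 in the knockout livers, where the groups lay close together (-0.70 ± 0.162, adjusted p = 0.0465). Its call was lost without any 1 of these libraries except KODam_HetFetus replicate 1 (-0.57 to -0.76, adjusted p = 0.0555 to 0.197). Slc22a5, the plasma membrane carnitine importer, missed the threshold at -0.92 ± 0.224 (adjusted p = 0.0664). Without the libraries with raised markers, 4 genes of this list fell.

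Within mitochondria, 9 of 23 beta-oxidation genes fell, 0 rose, and the median was -0.553. Falls were found at each chain length of the acyl-CoA dehydrogenases except the medium one. Acadvl, for very long chains (chromosome 11, 70010183 to 70015428), stood at 6.41, 6.37, 6.86 and 7.09 in the heterozygous livers and 4.75, 4.98, 4.91 and 4.92 in the knockout livers, and the knockout livers were close to each other (-1.79 ± 0.142, adjusted p = 1.95e-07). Acadl, for long chains, fell by 0.55 ± 0.11 and Acads, for short chains, by 0.92 ± 0.149. Acadm, for medium chains, stood at 6.59, 6.66, 7.05 and 7.57 in the heterozygous livers and 6.03, 6.59, 6.57 and 6.01 in the knockout livers, where the highest knockout liver reached the lowest heterozygous one, and it was not called (-0.67 ± 0.183, adjusted p = 0.141). Without the heterozygous littermates Acadm was called at -1.01 (adjusted p = 0.00827).

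Downstream of the dehydrogenases, both subunits of the trifunctional protein fell by nearly the same amount, Hadha by 0.82 ± 0.143 and Hadhb by 0.82 ± 0.142. These genes are neighbours on chromosome 5. The flavoprotein chain that takes electrons from the dehydrogenases fell at Etfdh (-1.55 ± 0.169) and Etfb (-1.05 ± 0.139), while Etfa was at -0.26 and not called. Eci2 (-1.05 ± 0.196) and Decr1 (-1.17 ± 0.173), which prepare unsaturated chains, fell too. Genes of this list without a call included Hadh (-0.54), Acaa2 (-0.52), Echs1 (0.15) and the propionate genes Pcca (-0.23) and Pccb (-0.13). Fitting only the 8 livers left 5 falls on this list. Respiratory chain genes stayed near the middle of all genes: of 36 tested, 0 were called by limma, 0 had an unadjusted p under 0.05, and the values ran from -0.24 to 0.13.

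**Figure D2:**
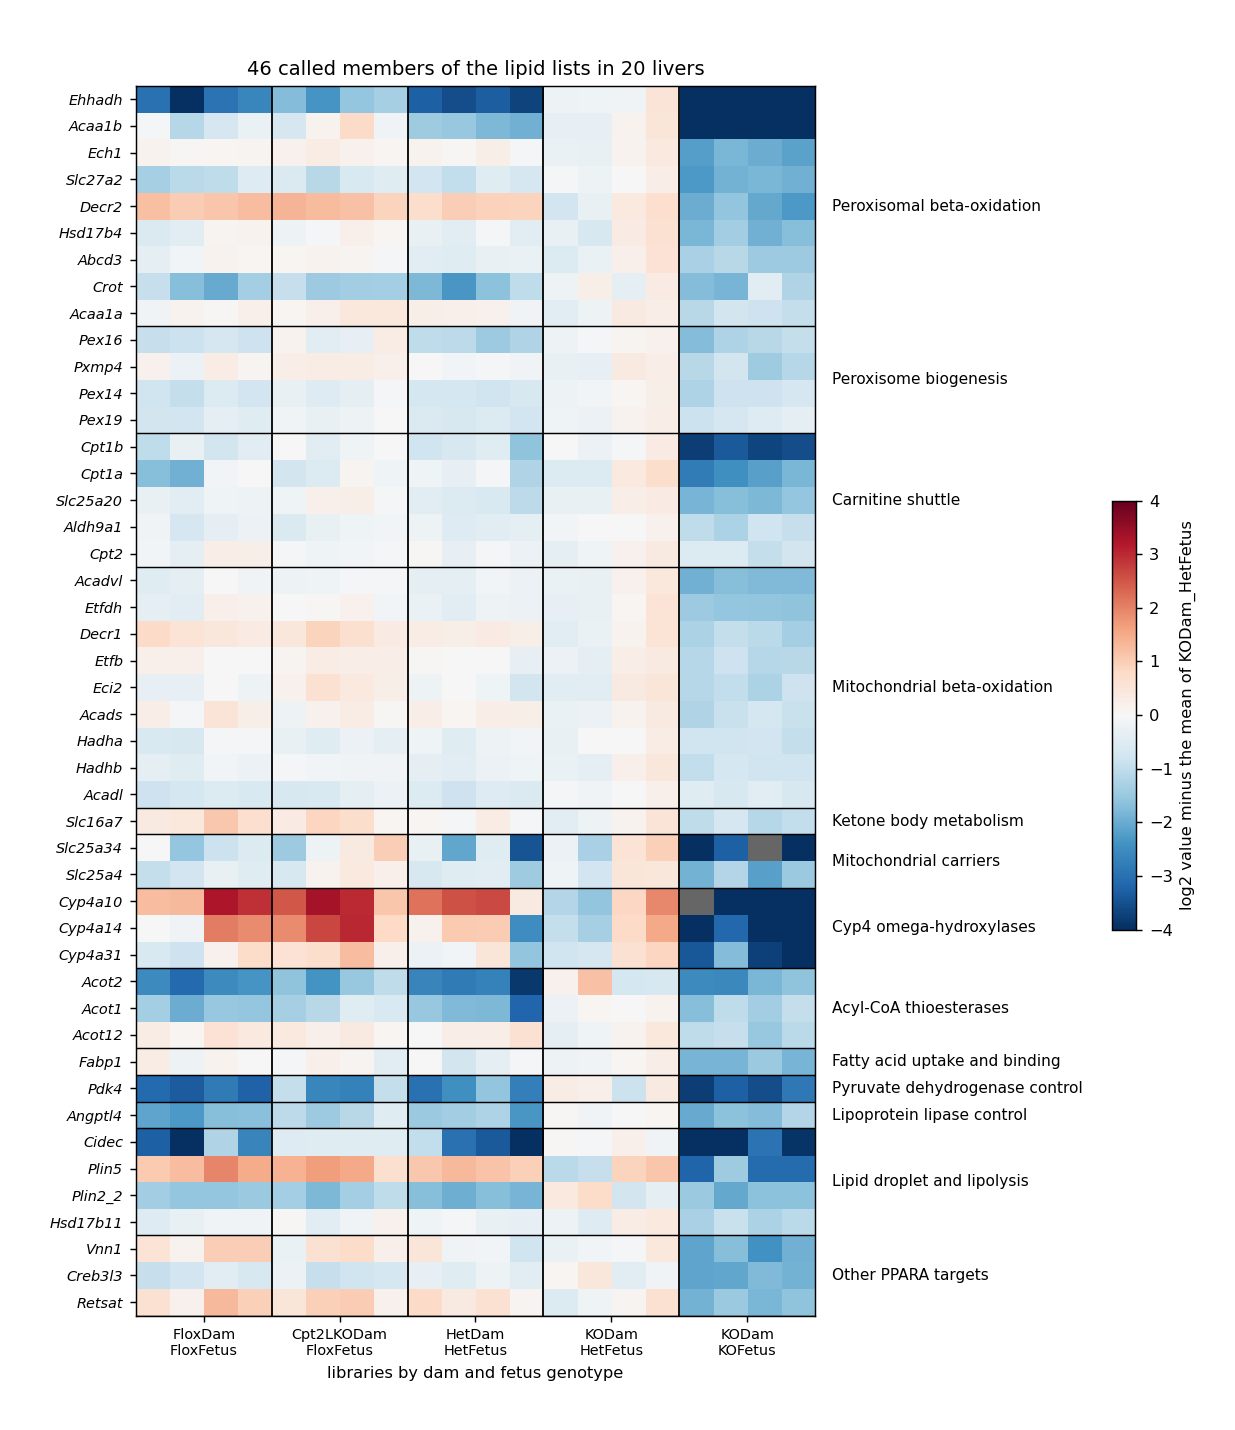
Log2 value minus the mean of KODam_HetFetus (colour, saturating at 4 either way; grey marks a blank) for 46 of the 48 called genes of the lipid lists (rows, by list) in 20 livers (columns, by group). The rows were chosen as called lower in KODam_KOFetus than in KODam_HetFetus, so the blue of KODam_KOFetus follows from that choice. HetDam_HetFetus and both groups without a Ppara knockout allele, which played no part in the direction of the call, differ from row to row.

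Of 9 tested genes of ketone body metabolism 2 fell and 0 rose. Slc16a7, a carrier of ketone bodies and lactate, fell by 0.95 ± 0.218 with an adjusted p of 0.0423, and its call was lost without any 1 library except replicate 1 of KODam_HetFetus and replicate 2 of KODam_KOFetus (-0.78 to -1.02, adjusted p = 0.0555 to 0.186). It was lost as well with litter as a random block (-1.05, adjusted p = 0.0632) and with a pseudocount of 1 (-0.57, adjusted p = 0.128). Acat1 and Bdh1, enzymes of acetoacetyl-CoA and of hydroxybutyrate, were not called, with Acat1 at -0.75 (adjusted p = 0.104) and Bdh1 at -0.78 (adjusted p = 0.118). The number of falls on this list ran from 1 to 4 over the alternatives other than the replicate block.

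Pdk4, which inhibits pyruvate dehydrogenase when fat is burnt (chromosome 6, 5483351 to 5496278), stood at 6.95, 6.84, 5.79 and 6.98 in the heterozygous livers and 2.88, 3.38, 3.09 and 3.79 in the knockout livers. KODam_HetFetus replicate 3 was lowest of its group and still about 2 log2 units above the highest knockout liver (-3.35 ± 0.39, adjusted p = 3.49e-05). It was the only called gene among 14 of pyruvate dehydrogenase control, and Pdk1 (-0.20), Pdk2 (-0.04) and Pdk3 (0.05) were not called. Of 33 mitochondrial carriers 3 fell. Besides Slc25a20 these were Slc25a4, the ADP/ATP carrier of muscle and heart (-1.69 ± 0.294), and Slc25a34, a carrier of the inner membrane (-4.63 ± 0.811, 3 knockout livers with a value). Muscle transcripts were raised in KODam_KOFetus replicate 2, and without that library Slc25a4 was at -1.86 and Slc25a34 at -5.31, both called. Fitting only the 8 livers left 1 fall on this list, with Slc25a4 (adjusted p = 0.0529) and Slc25a34 (adjusted p = 0.0948) no longer called, and with a pseudocount of 4 Slc25a34 was at -0.32 (adjusted p = 0.105). Slc25a5, another ADP/ATP carrier, was at -0.04.

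Microsomal omega-hydroxylases of the Cyp4a family had the largest fall of all. Cyp4a10 (chromosome 4, 115518287 to 115533649) stood at 0.27, -0.14, 2.25 and 3.36 in the heterozygous livers and no value, -2.87, -5.59 and -5.64 in the knockout livers. The 3 knockout values were below the heterozygous ones, which themselves spanned more than 3 log2 units, with the littermates lowest (-6.14 ± 0.861, adjusted p = 0.000449). Cyp4a14 (chromosome 4, 115486200 to 115496158) stood at 1.74, 1.38, 3.45 and 4.23 in the heterozygous livers and -2.28, -0.45, -4.68 and -2.68 in the knockout livers and repeated that order (-5.22 ± 0.889, adjusted p = 0.00264). Cyp4a31 fell by 3.33 ± 0.528, and Cyp4a32 was at -3.86 with an adjusted p of 0.0585, which missed the threshold. The Cyp4a genes lie side by side on chromosome 4 and are alike in sequence, and reads may be divided among them in error. At these low values the fold depends on the scale: with a pseudocount of 1 the differences were -1.96 for Cyp4a10 (adjusted p = 0.19) and -2.63 for Cyp4a14 (adjusted p = 0.0689). In contrast with the Cyp4a genes, the tested Cyp4f genes, Cyp4v3 and Cyp4b1 were not called, with values from -0.71 for Cyp4f17 to 0.31 for Cyp4v3.

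Of 12 acyl-CoA thioesterases, which release free fatty acids from coenzyme A, 3 fell. Acot2, the mitochondrial form, stood at 4.82, 5.82, 3.96 and 4.02 in the heterozygous livers and 2.12, 2.08, 2.81 and 3.04 in the knockout livers, with the heterozygous littermates highest (-2.14 ± 0.377, adjusted p = 0.00352). Without that pair it was at -1.48 and not called (adjusted p = 0.0859). Acot1, the cytosolic form and its near copy, fell by 1.26 ± 0.281, and its call was lost without any 1 library except replicate 1 of KODam_HetFetus and replicates 2 and 4 of the knockout livers (-1.11 to -1.25, adjusted p = 0.0659 to 0.169). Litter as a random block (adjusted p = 0.149) and averaged littermates (adjusted p = 0.167) also ended the call of Acot1. Acot12, which acts on acetyl-CoA, fell by 1.13 ± 0.171, and Acot3 missed the threshold at -1.88 ± 0.443 (adjusted p = 0.0515). Reads of Acot1 and Acot2 may be shared.

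Among 17 genes of fatty acid uptake and binding, the 2 falls were Slc27a2 and Fabp1. Fabp1, the fatty acid binding protein of liver cytosol (chromosome 6, 71199879 to 71205034), stood at 8.90, 8.98, 9.19 and 9.39 in the heterozygous livers and 7.25, 7.26, 7.65 and 7.24 in the knockout livers, so the groups were more than 1 log2 unit apart (-1.76 ± 0.168, adjusted p = 2.76e-06). Cd36, a membrane fatty acid translocase on the target list, was at 0.24 ± 0.144 (adjusted p = 0.556). The heterozygous and knockout livers overlapped for Cd36. Of 14 acyl-CoA synthetases Slc27a2 was the only one called, and Acsl1, the main long-chain form of liver, was at -0.76 (adjusted p = 0.336).

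Lipid droplet and lipolysis genes gave 4 falls among 22. Plin5, a droplet coat protein of oxidative tissues (chromosome 17, 56111597 to 56117606), stood at 2.25, 2.38, 4.20 and 4.42 in the heterozygous livers and 0.11, 1.89, 0.23 and 0.25 in the knockout livers. The heterozygous littermates lay below the other 2 heterozygous livers, and KODam_KOFetus replicate 2, the library with muscle transcripts, stood above its group (-2.69 ± 0.444, adjusted p = 0.00178). Without that library the difference was -3.12 (adjusted p = 0.000235), and a fit of only the 8 livers did not call it (adjusted p = 0.122). Plin2, the coat protein found on most droplets (its tested entry, Plin2_2), stood at 7.39, 7.73, 6.27 and 6.66 in the heterozygous livers and 5.53, 4.98, 5.37 and 5.38 in the knockout livers. Here the heterozygous littermates were the highest libraries, the reverse of Plin5 (-1.70 ± 0.232, adjusted p = 0.000275). Fitting only the 8 livers left 2 falls on the droplet list.

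Cidec, which fuses droplets, stood at 0.74, 0.63, 0.90 and 0.55 in the heterozygous livers and -3.65, -4.56, -2.24 and -3.20 in the knockout livers, with the heterozygous livers close together and every knockout liver below them (-4.12 ± 0.751, adjusted p = 0.00507). It was not called without the heterozygous littermates (-4.14, adjusted p = 0.0594). Hsd17b11, a droplet-bound dehydrogenase, fell by 1.13 ± 0.173. Agpat9, the older symbol of the glycerol-phosphate acyltransferase gene Gpat3, fell by 1.29 ± 0.202 and was counted outside the list because the table uses that name. G0s2, an inhibitor of the triglyceride lipase, stood at 6.00, 7.37, 6.27 and 6.10 in the heterozygous livers and 5.13, 5.78, 3.66 and 3.52 in the knockout livers and just missed the threshold (-1.92 ± 0.451, adjusted p = 0.0515), while Pnpla2, the lipase itself, was at -0.35 and not called. Of 14 genes of lipoprotein lipase control, the inhibitor Angptl4 was the only call. It stood at 7.16, 6.98, 7.15 and 7.20 in the heterozygous livers and 5.09, 5.49, 5.38 and 5.95 in the knockout livers, with the heterozygous livers close to each other (-1.65 ± 0.23, adjusted p = 0.000332). Apolipoproteins gave 0 calls among 15 in limma. Of the 15, 4 were lower at an unadjusted p under 0.05, beside 661 of 11805 over all genes.

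**Figure D3:**
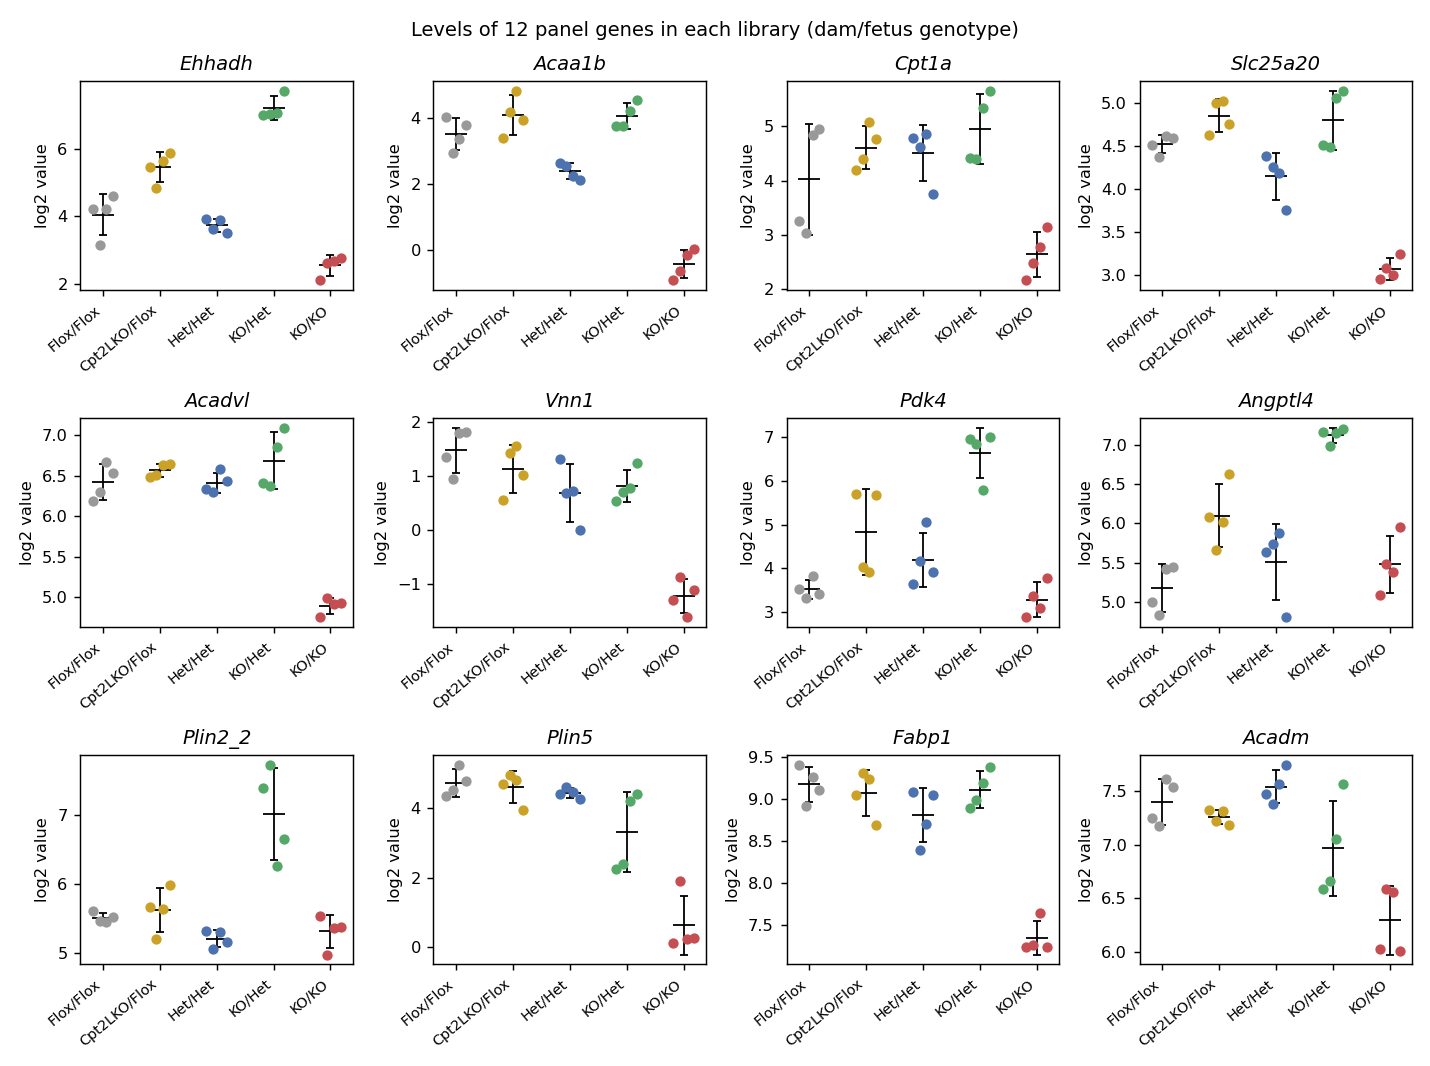
Log2 value (y axis) of 12 genes in each of 20 livers (points), by dam and fetus genotype (x axis), with the group mean and SD (bars). KODam_KOFetus is lowest for Acaa1b, Slc25a20, Acadvl, Vnn1 and Fabp1, whereas for Pdk4, Angptl4 and Plin2_2 the mean of KODam_HetFetus stands above all other groups.

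Further targets outside those pathways fell as well. Creb3l3, a membrane-bound transcription factor of fasting and triglyceride handling (chromosome 10, 81084329 to 81098872), stood at 6.28, 6.64, 5.78 and 6.06 in the heterozygous livers and 4.09, 4.11, 4.43 and 4.31 in the knockout livers (-1.96 ± 0.168, adjusted p = 6.84e-07). Its heterozygous littermates were the highest 2 livers. Vnn1, which releases vitamin B5 from pantetheine, fell by 2.04 ± 0.281, and Retsat, a saturase of retinol, by 1.70 ± 0.25. Txnip, a glucose-responsive arrestin, was at -1.76 with an adjusted p of 0.188, and knockout replicate 3 (8.91) lay among the heterozygous livers. Genes of PPARA's partners and relatives gave 0 calls among 31 nuclear receptors and coregulators in limma, where 5 were lower and 2 higher at an unadjusted p under 0.05. Over all 11805 genes, 661 were lower and 626 higher by that measure.

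PPARA with RXR binds a direct repeat of the motif AGGTCA with 1 base of any kind between its copies. This repeat was searched with up to 2 mismatches on both strands of RefSeq promoters, from 250 bases before to 50 after each annotated start of a gene (GRCm38.p6), and a gene counted if any of its starts held a match. Of 94 lower genes 66 had a promoter in the table, and 8 of these (12.1%) held a match. Of all 8712 tested genes with a promoter 337 (3.87%) held one, and of all 27025 genes with a start there 1190 (4.40%). These 3 sets had means of 1.23, 1.27 and 1.22 starts per gene. With up to 1 mismatch the counts were 3 of 66 (4.55%), 49 of 8712 (0.562%) and 174 of 27025 (0.644%). The matches of Fabp1, Acot12 and Ak4 are those with 1 mismatch, and those of Creb3l3 and Plin2, with 2, belong to targets described above. They are printed with the match in capitals and 24 bases on either side, 5′ to 3′ on the gene's own strand.
Fabp1, chr6:71199788-71199848, plus strand: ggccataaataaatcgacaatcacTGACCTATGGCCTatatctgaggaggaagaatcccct
Acot12, chr13:91741387-91741447, plus strand: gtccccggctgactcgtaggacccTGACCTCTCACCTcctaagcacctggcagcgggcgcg
Ak4, chr4:101419544-101419604, plus strand: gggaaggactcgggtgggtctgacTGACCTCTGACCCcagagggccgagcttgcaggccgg
Creb3l3, chr10:81092764-81092824, minus strand: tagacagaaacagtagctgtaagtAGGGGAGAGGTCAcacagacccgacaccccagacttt
Plin2, chr4:86670248-86670308, minus strand: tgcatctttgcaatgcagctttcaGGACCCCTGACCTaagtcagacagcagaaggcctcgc
Of the starts used, that of Fabp1 is the gene's outermost one, while those of Plin2, Acot12, Ak4 and Creb3l3 lie 158, 195, 3225 and 6281 bases inside the outermost start of the same gene's annotation, so the windows of Ak4 and Creb3l3 lie wholly inside the annotated gene. The Fabp1 match covers bases -67 to -55 from the start, and like those of Acot12, Ak4 and Plin2 it lies on the opposite strand, so its motif reads TGACCT. A match describes these letters only, and genes without one, such as Ehhadh, may hold such a site outside this window.

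The other 46 lower genes were on no lipid list. Qpct, which forms pyroglutamate at protein ends (chromosome 17, 79051906 to 79090378), stood at 3.76, 3.69, 4.06 and 3.91 in the heterozygous livers and 0.72, 1.09, 1.75 and 1.77 in the knockout livers, a gap of nearly 2 log2 units (-2.52 ± 0.242, adjusted p = 2.89e-06). Cda, the cytidine deaminase of pyrimidine salvage, stood at 1.49, 1.88, 1.73 and 1.75 in the heterozygous livers and -0.45, -0.59, -0.44 and -1.71 in the knockout livers, with knockout replicate 4 lowest (-2.51 ± 0.247, adjusted p = 3.83e-06). Abhd6, a lipase of monoacylglycerols and lysophospholipids, stood at 1.37, 1.59, 1.36 and 1.45 in the heterozygous livers and -0.38, -0.18, -0.77 and -0.50 in the knockout livers (-1.90 ± 0.194, adjusted p = 6.16e-06). Lpcat3, which places polyunsaturated chains into phospholipids, stood at 5.39, 5.52, 5.19 and 5.31 in the heterozygous livers and 4.38, 4.21, 4.39 and 4.30 in the knockout livers, and the small spread within groups set the 2-fold difference well apart (-1.03 ± 0.108, adjusted p = 7.96e-06). These 4 genes had the smallest p outside the lists after Rpl3.

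Other genes of this set have varied roles. Dhrs4 (-0.88 ± 0.136) is a peroxisomal reductase, Hsdl2 (-1.16 ± 0.181) a peroxisomal dehydrogenase, Adtrp (-3.32 ± 0.509) a hydrolase of lipid esters, and Ak4 (-1.03 ± 0.165) a mitochondrial adenylate kinase. Rab30 (-2.15 ± 0.287) is a small GTPase of the Golgi and Krt23 (-3.30 ± 0.445, 3 knockout livers with a value) a keratin. Raet1d, a ligand of the NKG2D receptor of killer cells, fell by 2.62 ± 0.398. With a pseudocount of 4 Adtrp (-0.19, adjusted p = 0.393), Krt23 (-0.33, adjusted p = 0.23) and Raet1d (-0.63, adjusted p = 0.0751) lost their calls. Spon2, an extracellular matrix protein, fell by 1.55 ± 0.251 and lost its call without the heterozygous littermates (-1.27, adjusted p = 0.0531). Lgals4, a galectin that was the 1 call among 5 tested gut and stomach genes, stood at 3.61, 3.13, 4.11 and 4.24 in the heterozygous livers and 0.71, 1.75, 0.90 and 1.39 in the knockout livers. It lay apart between the groups (-2.59 ± 0.417, adjusted p = 0.00142) while the summed gut and stomach markers overlapped, at 108 to 249 in heterozygous and 168 to 556 in knockout livers. Their part in the result was not tested.

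Over all genes 0.822% were called in limma, and 10.9% had an unadjusted p under 0.05 in either direction. Of the lists with tested genes, 23 held 0 calls. Some of these lists are liver functions and others are markers of other cell types and tissues. Among them, 38 fatty acid and sterol synthesis genes had a median of 0.0376 with 5 lower and 4 higher at an unadjusted p under 0.05. Acacb, whose product makes the malonyl-CoA that inhibits CPT1, was at -1.85 (adjusted p = 0.111), and Fasn, the fatty acid synthase, at -0.29. Of 21 gluconeogenesis and glycogen genes 2 were lower and 3 higher at an unadjusted p under 0.05, and the nearest to the threshold was Gys2, the liver glycogen synthase (-0.77 ± 0.185, adjusted p = 0.0593). The lowest median was that of 24 glucocorticoid and clock genes, at -0.415, with 4 lower and 0 higher at an unadjusted p under 0.05. No glycolysis gene of 22 and no cell cycle gene of 34 reached even an unadjusted p under 0.05. Of 33 hepatocyte genes 2 were higher and 0 lower by that measure, and of 16 bile acid genes 2 were lower.

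The rises were few and small. Hmox1, the heme oxygenase that breaks down heme, stood at 6.91, 6.76, 6.94 and 6.91 in the heterozygous livers and 7.52, 7.34, 7.42 and 7.27 in the knockout livers (0.51 ± 0.104, adjusted p = 0.0155). Clec4a1, a lectin of myeloid cells, stood at 0.89, 0.70, 1.34 and 1.89 in the heterozygous livers and 2.34, 2.58, 2.10 and 2.47 in the knockout livers (1.17 ± 0.232, adjusted p = 0.0114). Ank, a transporter of pyrophosphate, stood at 2.78, 2.69, 3.12 and 2.81 in the heterozygous livers and 4.35, 4.16, 3.22 and 3.88 in the knockout livers (1.05 ± 0.242, adjusted p = 0.0423). No library of one group fell inside the other group for these genes, although Ank in knockout replicate 3 and heterozygous replicate 3 nearly met. With litter as a random block none of these was called, at adjusted p = 0.0905 for Hmox1, 0.0686 for Clec4a1 and 0.251 for Ank. Hmox1 lost its call when KODam_HetFetus replicate 2 was left out, and when KODam_KOFetus replicate 1 was (0.47 and 0.46), Clec4a1 without KODam_HetFetus replicate 1 or 2 (1.06 and 1.00), and Ank without any 1 library except KODam_KOFetus replicate 3 (0.91 to 1.14, adjusted p = 0.052 to 0.211). Summed levels of the 23 macrophage markers, which include Clec4a1, were 697 to 858 in heterozygous and 792 to 1040 in knockout livers. Of 22 tested, 8 were higher at an unadjusted p under 0.05, beside 626 of 11805 over all genes. The part of these markers in the rise of Clec4a1 was not tested. Without KODam_KOFetus replicate 3 the higher genes numbered 50 and the lower genes 97.

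The smallest p of all belonged to Rpl3, a protein of the large ribosomal subunit (chromosome 15, 80077781 to 80083406), which lies 5.69 Mb from Ppara on the same chromosome. Rpl3 stood at 8.17, 8.29, 8.11 and 8.07 in the heterozygous livers and 4.49, 4.32, 3.79 and 3.90 in the knockout livers, a gap of more than 3 log2 units (-4.04 ± 0.131, adjusted p = 1.14e-13). Its entry cannot be read alone. Rpl3-ps1, annotated as a processed pseudogene on chromosome X (13202518 to 13203837), is almost the same sequence: 1207 of 1209 aligned coding bases are identical (99.8%), and 88.4% of the stretches of 75 bases, the read length, hold no difference. The first 75 coding bases of both, from GENCODE M21 transcripts of GRCm38, hold 1 difference, which is in capitals.
Rpl3, chromosome 15: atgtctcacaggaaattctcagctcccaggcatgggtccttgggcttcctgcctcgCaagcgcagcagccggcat
Rpl3-ps1, chromosome X: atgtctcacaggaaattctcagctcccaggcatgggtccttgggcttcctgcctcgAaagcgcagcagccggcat

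Rpl3-ps1 stood at 8.62, 8.69, 8.55 and 8.60 in the heterozygous livers and 9.67, 9.35, 9.21 and 9.48 in the knockout livers, higher in all 4 knockout livers but not called (0.81 ± 0.224, adjusted p = 0.143). Over all 20 livers both entries formed tiers that followed the number of knockout alleles in the labels. Rpl3 had a median of 9.15 (8.98 to 9.27) in the 8 livers with 0 knockout alleles, 8.03 (7.58 to 8.29) in the 8 with 1, and 4.11 (3.79 to 4.49) in the 4 with 2. Rpl3-ps1 had medians of 2.75 (1.92 to 3.45), 8.47 (8.10 to 8.69) and 9.41 (9.21 to 9.67) for 0, 1 and 2 alleles. No library of either entry fell inside another tier. The median share of the summed linear level listed under Rpl3-ps1 was 1.28%, 57.7% and 97.5%.

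When both entries were added, the sum had medians of 9.17, 9.27 and 9.45, and the difference between knockout and heterozygous livers was 0.06 (adjusted p = 0.848) in place of the -4.04 of Rpl3 alone. This sum was added after the values had been seen. How the authors assigned reads that match both places is not given in the sources used here. All livers with 0 knockout alleles belong to the Cpt2 groups, so the number of alleles and the breeding of those groups cannot be told apart in that tier.

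**Figure D4:**
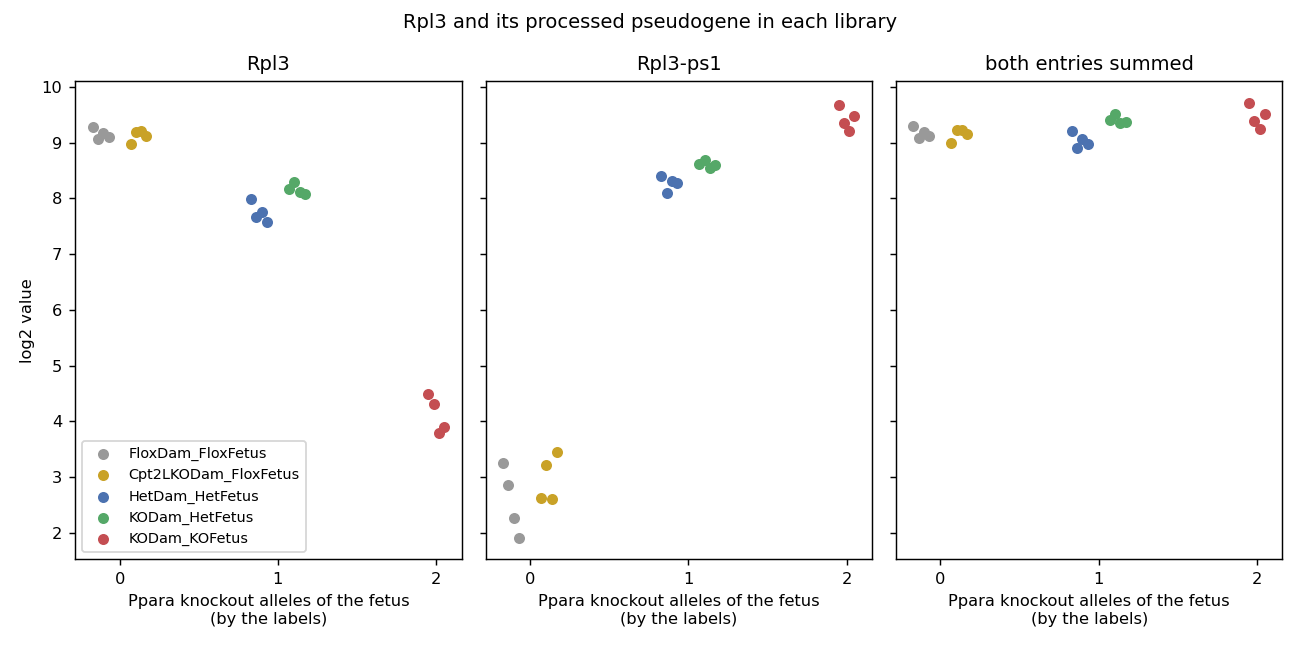
Log2 value (y axis) of Rpl3, of Rpl3-ps1 and of both summed in 20 livers (points, coloured by group) against the number of Ppara knockout alleles by the labels (x axis). Rpl3 steps down from a median of 9.15 to 4.11 and Rpl3-ps1 steps up from 2.75 to 9.41, while the sum stays between 8.90 and 9.71.

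Rpl3 was not the only called gene near Ppara. Within 10 Mb of Ppara on chromosome 15, 6 of 207 tested genes were called (2.90%), all of them lower. On the rest of the chromosome 2 of 255 (0.784%) were called and on the others 88 of 11229 (0.784%), and 1 called gene, Gm40498, has no position. The 6 may not all be separate signals. Rpl3 was at 0.06 when summed with Rpl3-ps1. Cpt1b, Chkb and Gm44502 are overlapping or neighbouring entries that may share reads, which was not tested. The share of 2.90% may therefore be an upper count. Apobec3, an antiviral cytidine deaminase 5.87 Mb from Ppara, stood at 1.28, 1.17, 1.30 and 1.52 in the heterozygous livers and 0.19, 0.19, -0.67 and -0.18 in the knockout livers (-1.44 ± 0.194, adjusted p = 0.000252). It too formed tiers by the number of knockout alleles, with medians of 2.67 (1.96 to 2.90), 1.61 (1.17 to 1.94) and 0.00 (-0.67 to 0.19) that did not overlap.

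Cpt1b lies 3.65 Mb from Ppara (chromosome 15, 89416405 to 89425862) and is also a PPARA target. It stood at 4.35, 4.12, 4.28 and 4.70 in the heterozygous livers and 0.61, 1.00, 0.67 and 0.82 in the knockout livers, a gap of more than 3 log2 units (-3.59 ± 0.208, adjusted p = 1.69e-09). Unlike Rpl3 it had no tier between 0 and 1 knockout alleles, with medians of 3.99 (3.36 to 4.36) and 4.00 (2.74 to 4.70). With 2 alleles the median was 0.75 (0.61 to 1.00). These medians pool groups that differ. The means were 3.47 in HetDam_HetFetus and 4.36 in KODam_HetFetus with 1 allele. With 0 alleles they were 3.74 in FloxDam_FloxFetus and 4.20 in Cpt2LKODam_FloxFetus. Its neighbour Chkb, a choline kinase, fell by 0.87 ± 0.142, and Gm44502, an entry that spans both genes, by 1.97 ± 0.311, so these 3 entries may share reads. Skeletal muscle expresses Cpt1b strongly, and without KODam_KOFetus replicate 2 Cpt1b was at -3.66 and still called. Dennd6b, a guanine nucleotide exchange factor gene 3.42 Mb from Ppara, was the sixth (-0.80 ± 0.183, adjusted p = 0.0423) and was named after its values were seen.

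**Figure D5:**
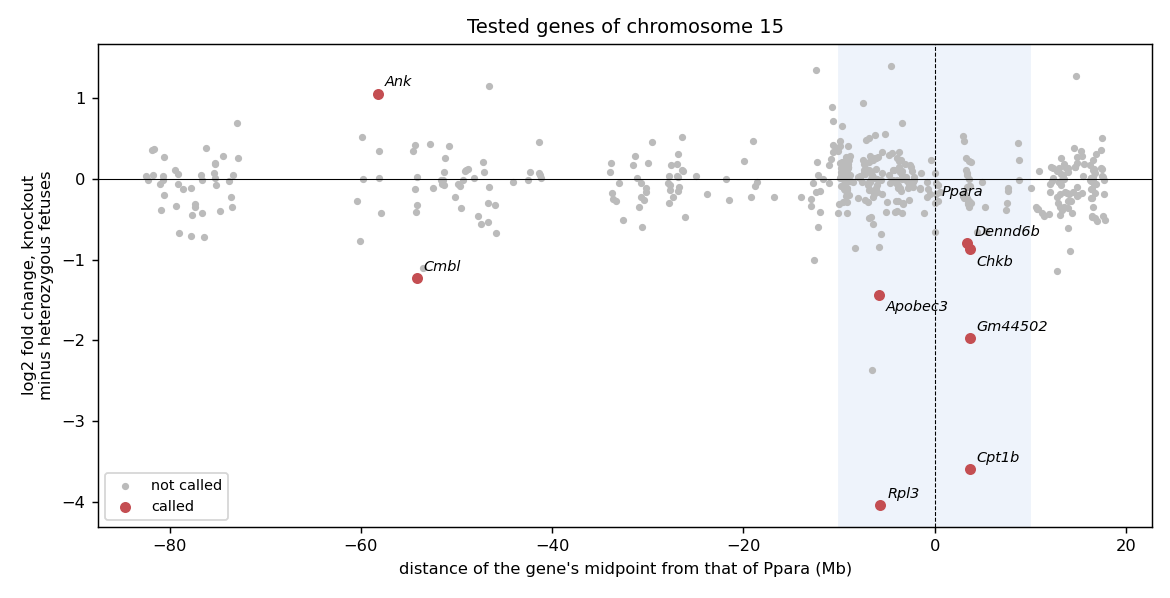
Log2 fold change of KODam_KOFetus minus KODam_HetFetus (y axis) of tested chromosome 15 genes against distance from Ppara in Mb (x axis, shaded within 10 Mb). The 6 called genes inside the shaded window (red) lie at -0.80 to -4.04, and most of the other genes lie near 0.

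Levels in heterozygous fetuses of heterozygous dams show that a fall within knockout dams had different starting points. These comparisons share libraries, so their values are set side by side only. HetDam_HetFetus replicate 4 had a skeletal muscle marker sum of 201.7, against 12.05 to 16.92 in the rest of its group. It also had the highest hepatocyte sum (157100) and the lowest erythroid sum (170900) of that group. The part of this library in the HetDam_HetFetus levels was not tested. For KODam_HetFetus minus HetDam_HetFetus, 26.4% of 11800 genes were called higher and 12.6% lower. For KODam_KOFetus minus HetDam_HetFetus, 17.4% of 11801 were called higher and 7.31% lower. Acadvl stood at 6.41 ± 0.128 in HetDam_HetFetus, 6.68 ± 0.351 in KODam_HetFetus and 4.89 ± 0.1 in KODam_KOFetus (SD, n = 4 here and below). Its difference between the heterozygous groups was 0.27 ± 0.142 (adjusted p = 0.132), and that between KODam_KOFetus and HetDam_HetFetus was -1.52 ± 0.142 (adjusted p = 3.82e-06). Fabp1 stood at 8.81 ± 0.323 in HetDam_HetFetus, 9.12 ± 0.219 in KODam_HetFetus and 7.35 ± 0.198 in KODam_KOFetus, with 0.31 ± 0.168 (adjusted p = 0.157) between the heterozygous groups and -1.46 ± 0.168 (adjusted p = 3.55e-05) for knockout livers against HetDam_HetFetus. For both genes the difference between the heterozygous groups missed the threshold, and the knockout livers were below both.

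Angptl4 gave another order. It stood at 5.51 ± 0.483 in HetDam_HetFetus, 7.12 ± 0.0966 in KODam_HetFetus and 5.47 ± 0.358 in KODam_KOFetus, with 1.61 ± 0.23 (adjusted p = 0.000149) between the heterozygous groups and -0.04 ± 0.23 (adjusted p = 0.927) for knockout livers against HetDam_HetFetus. Plin2_2 stood at 5.21 ± 0.126 in HetDam_HetFetus, 7.01 ± 0.67 in KODam_HetFetus and 5.31 ± 0.237 in KODam_KOFetus, with 1.80 ± 0.232 (adjusted p = 9.7e-05) and 0.11 ± 0.232 (adjusted p = 0.766), and Pex16 at 3.49 ± 0.21 in HetDam_HetFetus, 4.67 ± 0.174 in KODam_HetFetus and 3.42 ± 0.345 in KODam_KOFetus, with 1.18 ± 0.175 (adjusted p = 0.000174) and -0.07 ± 0.175 (adjusted p = 0.787). For these the heterozygous fetuses of knockout dams stood above both other groups, and the difference between those groups missed the threshold.

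Ehhadh and Acaa1b combined both. Ehhadh stood at 3.74 ± 0.203 in HetDam_HetFetus, 7.19 ± 0.347 in KODam_HetFetus and 2.56 ± 0.299 in KODam_KOFetus, with knockout livers against HetDam_HetFetus at -1.18 ± 0.262 (adjusted p = 0.00423). Acaa1b stood at 2.38 ± 0.237 in HetDam_HetFetus, 4.05 ± 0.394 in KODam_HetFetus and -0.41 ± 0.429 in KODam_KOFetus, with the same comparison at -2.79 ± 0.287 (adjusted p = 1.05e-05). Decr2 stood at 4.53 ± 0.12 in HetDam_HetFetus, 3.65 ± 0.642 in KODam_HetFetus and 1.67 ± 0.295 in KODam_KOFetus, so it was lower in heterozygous fetuses of knockout dams than of heterozygous dams (-0.87 ± 0.222, adjusted p = 0.00507) and lower again in the knockout fetuses. Acot1 stood at 4.14 ± 0.749 in HetDam_HetFetus, 6.20 ± 0.169 in KODam_HetFetus and 4.94 ± 0.352 in KODam_KOFetus. Its knockout livers lay below KODam_HetFetus and, unlike those of Decr2, above HetDam_HetFetus (0.80 ± 0.281, adjusted p = 0.0433).

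The fetal knockout effect was compared between males and females, with 2 livers per sex in each group. No gene of 11789 was called for a difference in limma, and 351 (2.98%) had an unadjusted p under 0.05. The smallest p belonged to Slc6a20a, an amino acid transporter, at 0.77 in males and -1.49 in females, a difference of 2.26 ± 0.530 (adjusted p = 1.00). Cyp2a5, a cytochrome P450 of xenobiotic metabolism, followed at 1.36 and -1.29 (adjusted p = 1.00). Both male knockout livers are presumed littermates, so sex and litter cannot be told apart in that group.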

How the data were processed

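Livers of 20 E17.5 fetuses were profiled by stranded poly(A) RNA sequencing with single 75-base reads, per the labels' protocols. The authors deposited 1 table of log2 values, with equal quantiles in every library and blanks where an entry has no value. No source names what was measured before the logarithm was taken, so sequencing depth is unknown. bcl2fastq 2.17.1.14 and Partek 7.0 with GRCm38.p6 are listed per the submitters' processing notes, while the aligner is not given in the sources used here, nor is the counting rule. Quantile normalization hides a difference in total output between groups. Libraries had values for 23334 to 26255 entries.

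One linear model per gene held all 20 livers and a mean for each of the groups. It was fitted in R 4.3.3 by limma 3.58.1, whose variance prior followed the mean level. There were 15 residual degrees of freedom and a prior worth 4.09 more. Every test was two-sided, with Benjamini-Hochberg adjustment over all genes tested. The linear value is 2 raised to the log2 value, and blanks were left out. A fold change is a difference of log2 values. Errors after ± are standard errors from this model of all 20 livers unless marked SD. RefSeq tables of GRCm38.p6 gave positions and promoters, matching 11693 of 11807 entries by symbol or synonym, and GENCODE M21 gave transcripts. The script was tested on simulated data.

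The genes named were Ppara, a panel of 20 genes, the 15 largest called falls and rises, up to 4 called genes of each list by p, and the 20 called genes with the smallest p on no list. Other list members are named as examples. A few genes are counted in the totals but not reported here by name. The members and lists were chosen with earlier results of these data known. Alternatives covered litter, sex, replicate number, scaling, pseudocount, low-value filter, blanks, left-out libraries and libraries with raised tissue markers.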

Additional observations from a re-analysis of the deposited data

Results flagged for a closer look

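In 10 of 127 groups of 4 livers examined, 1 library stood far from the other 3, where chance gives about 1 in 20. All values are log2 values. Among heterozygous fetuses of knockout dams, Pdk4 was low in replicate 3 at 5.792 (others 6.837 to 6.984) and Hmox1 was low in replicate 2 at 6.76 (others 6.911 to 6.937). Ehhadh was high in replicate 4 of that group at 7.711 (others 7.001 to 7.036), as was Ctif, a factor of translation initiation, at 1.239 (others 0.4437 to 0.5032).

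Among knockout fetuses, replicate 2 was high for the droplet coat gene Plin5 at 1.893 (others 0.1087 to 0.2508) and for Etfb at 6.998 (others 6.67 to 6.707), and this library also had raised skeletal muscle markers. Replicate 3 was high for Fabp1 at 7.646 (others 7.243 to 7.265). Replicate 4 was low for Hadha at 5.25 (others 5.408 to 5.417) and for Cda at -1.707 (others -0.5905 to -0.4383), and high for Spon2 at 1.385 (others 0.8799 to 0.9237). In each of these genes the knockout libraries still lay apart from the heterozygous ones.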

How the results depend on the processing

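Of 62 named genes that were called, 54 kept the call with each library left out in turn and 17 kept it in every alternative in which they were tested, 15 of them in all 25. The called genes numbered 63 (60 lower) with only the 8 livers in the fit, and 75 to 147 with 1 library left out (71 to 97 lower, 1 to 50 higher). The highest counts came without KODam_KOFetus replicate 3. The 3 rises became 0 with litter as a random block, 0 with littermates averaged, 8 with trimmed-mean scaling, 9 with quantile normalization of the tested genes, 6 and 7 with pseudocounts of 1 and 4, and 1 without the libraries with raised tissue markers. Falls that remained from the 94 were 57 with only the 8 livers, 71 with littermates averaged, 75 without the heterozygous littermates and 78 without the libraries with raised markers. Rpl3 was at 0.060 (adjusted p = 0.848) after its values were summed with Rpl3-ps1, an alternative chosen after seeing the data. The cause of the other changes was not tested.

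With the replicate number as a block, 21 genes were called, 21 lower and 0 higher. Same-numbered livers correlated at 0.172, -0.356, -0.378 and -0.0233 in their deviations, and none correlated best with its own number, so the numbers were not taken to pair the samples.

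Depth is unknown, and log2 values below 0 rest on little signal. With 4 livers and 3 presumed litters per group, small differences could not be detected.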
